A study of Homo sapiens with 10 samples.

Results

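The actin, tropomyosin and contractile genes described here are a list of 10: the troponin C gene TNNC1, the myosin light chain kinase gene MYLK, the myosin light chain gene MYL9, the tropomyosin genes TPM1, TPM2 and TPM4, the cytoplasmic actin genes ACTB and ACTG1, the calponin gene CNN3, and SRF, which encodes serum response factor. They were chosen by name with earlier results of these arrays known, TNNC1 on its measured differences between the groups, and each was followed through the probe sets that the platform annotation assigns to that gene alone. Of the 10 genes, 9 had such a probe set, out of 19775 genes with one on the array, and 8 passed the filter on low signal, out of 12344 genes tested. ACTG1 had none of its own and was read only through 9 probe sets that it shares with ACTB. MYL9 had probe sets but was too dim to test.

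The cells were LoVo, an established line from a human colorectal adenocarcinoma, measured on Affymetrix HG-U133 Plus 2.0 arrays. Control cells (C) grew in medium with 10% serum and gave 3 arrays. Serum-starved cells (SS) spent 96 h in serum-free medium and gave 3 arrays, and the cells called ADMA here spent the same 96 h in serum-free medium with 10 μM asymmetric dimethylarginine, an endogenous inhibitor of the nitric oxide synthases, and gave 4. All 3 groups are the same unmodified line, the labels call the arrays of a group biological replicates, and there was no culture with ADMA in serum. Values are MAS 5.0 signals, the Affymetrix summary of the probes of a probe set, on a linear scale where every array had a trimmed mean of 500.1. For each gene, the probe set whose log2 signal was highest on average stands for the gene, and its level is compared only between groups, never with the level of another gene.

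Actin monomers polymerize into filaments, tropomyosins lie along those filaments and set which proteins can reach them, and myosin II pulls on them once its light chains have been phosphorylated by a kinase such as MYLK. Calponins bind actin filaments, and troponin C is the calcium sensor of the troponin complex of striated muscle. SRF is a transcription factor that binds the CArG box, a short motif found near the start of many actin and contractile genes. Its cofactors of the MRTF family are held by actin monomers and released when filaments form, while those of the ELK family are phosphorylated in the serum and growth factor response. In colon epithelial cells these proteins build the microvilli, the cell cortex and the contractile belt at the junctions.

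The list mixes SRF itself with genes that carry a CArG box near their start, so these windows are shown first. The promoter windows are those of RefSeq on GRCh38.p14, from 250 bases before to 50 bases after an annotated start, and 7 of the 10 genes had at least 1; ACTB, TNNC1 and MYL9 did not. A script searched them for the CArG box, a pattern of 10 bases that reads as the same pattern on both strands. The sequences that follow are 50 bases long, 5′ to 3′ on the strand of the gene, with the CArG boxes in capitals.
SRF, chr6:43171219-43171268, plus strand: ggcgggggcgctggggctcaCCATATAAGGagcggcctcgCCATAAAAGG
ACTG1, chr17:81512864-81512913, minus strand: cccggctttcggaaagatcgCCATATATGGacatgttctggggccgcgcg
MYLK, chr3:123620613-123620662, minus strand: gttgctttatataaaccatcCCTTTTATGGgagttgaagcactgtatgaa
TPM4, chr19:16067345-16067394, plus strand: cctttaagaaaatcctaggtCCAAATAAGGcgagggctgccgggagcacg
The SRF promoter held 2 boxes, which began 30 and 10 bases before the start. Those of ACTG1 and MYLK began 94 bases before it, and that of TPM4 began 173 bases before it. Of the 7 members with a window, 4 (57.1%) held a box, as did 12 of 118 other actin pathway genes (10.2%) and 438 of all 27305 genes in the table (1.6%). A gene counted if any of its windows held a box, and by window it was 4 of 12 for the members (33.3%). As the list holds SRF and genes with such a box by its make-up, its share is a description and no finding. Among the 12 others were the actin genes ACTA1, ACTC1 and ACTG2, the crosslinker genes ACTN1 and FLNA, and CNN2, FHL2, MYO1A, MYO1E and SMTN. Which transcripts or protein products of a gene, such as MYLK, begin at these starts was not analysed, and starts outside these windows were not searched. A match is a description of the letters in these windows, and says nothing about binding in LoVo cells.

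Before the members are described, 3 facts about the arrays bear on them. The median signal was 60.6 to 73.1 in C, 87.4 to 90.6 in SS and 91.8 to 98.1 in ADMA although the trimmed means were equal, so the choice of scaling matters. Centring each array on its median shifts every log2 difference by -0.39 for SS against C, by -0.12 for ADMA against SS and by -0.51 for ADMA against C. In addition, the line showed its labelled type: all 12 colon epithelial markers (EPCAM, CDH1, KRT20, VIL1 and others) were above background on every array, with summed signals of 84568 to 86057 in C, 121684 to 140555 in SS and 154085 to 175273 in ADMA. Of 16 muscle markers with a probe set, 11, among them MYOD1, MYOG, MYH7, CKM and MB, were above background on all arrays of no group, and the list summed to 719 to 763, 862 to 1014 and 798 to 1055. Of 17 markers of smooth muscle and fibroblasts, MYH11, CNN1, LMOD1, FAP, PDGFRB and THY1 were likewise dim, and the list summed to 2626 to 2910 in C, 2788 to 3051 in SS and 2322 to 2662 in ADMA. Finally, the comparisons of SS with C and of ADMA with SS share the SS arrays, so a low or high SS array moves both. In RNA of whole cultures, fewer cells that express a gene and less RNA of it per cell cannot be told apart.

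Serum starvation lowered CNN3 and raised TPM4, and ADMA in serum-free medium raised MYLK, CNN3 and ACTB and lowered TPM4 relative to SS. The MYLK and CNN3 calls held under both other scalings, whereas the ACTB rise and, with arrays centred on their medians, the TPM4 rise did not. A call is an adjusted p under 0.01 in limma, Benjamini-Hochberg adjusted over all 12344 genes, with a fold of at least 1.2. TNNC1 is left out of the counts because its difference was a reason for the list, which leaves 7 members tested. In SS against C, 1 of the 7 was called higher and 1 lower, where 30.3% and 27.3% of all genes tested were called. In ADMA against SS, 3 were called higher and 1 lower, against 15.7% and 13.8% of all genes. In ADMA against C, 2 were called higher (MYLK and ACTB) and 1 lower (CNN3), against 26.6% and 23.2%. The arrays of the 2 groups did not overlap for 3 of the 7 in SS against C (71.2% of all genes tested), for 4 in ADMA against SS (46.1%) and for 5 in ADMA against C (61.9%). TPM2 is among these in both comparisons with C, and it passed the filter on low signal only through SS and ADMA. Counts of this size are set beside the shares as a description, and a list of 7 supports no statement about the list as a whole.

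**Figure D1:**
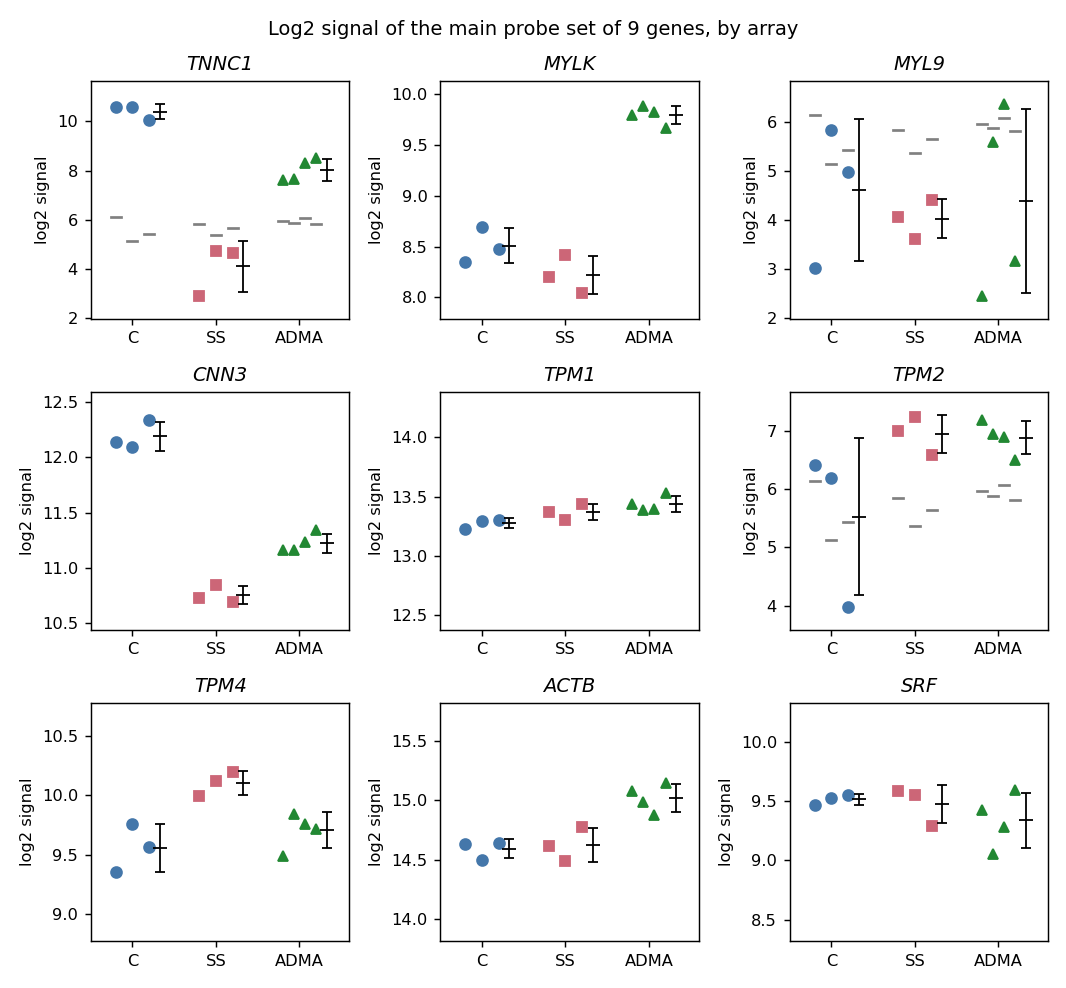
Log2 MAS 5.0 signal (y axis; its range differs between panels) of 9 genes on each of the 10 arrays, grouped as C (circles, n = 3), SS (squares, n = 3) and ADMA (triangles, n = 4), with bars for the mean ± SD and grey ticks for the background level of each array. TNNC1 was under the background level on all 3 SS arrays, the 4 MYLK values with ADMA sat above all others, and CNN3 was highest in C, lowest in SS and between them with ADMA.

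TNNC1, the calcium-binding subunit of troponin in heart and slow skeletal muscle, had signals of 1526, 1538 and 1062 in C, of 7.54, 26.9 and 25.02 in SS, and of 198, 202, 317 and 370 in ADMA. The 3 groups did not overlap, with C highest, ADMA between and SS lowest. None of the SS values was above the background level of its array, the 95th percentile of 27 Bacillus control probe sets, which ranged from 35.0 to 70.2 over the arrays. TNNC1 was therefore at least 27.6-fold lower in SS than in C and at least 5.32-fold higher in ADMA than in SS. These bounds set each dim value at its array's background level, where the measured log2 means were 10.40 ± 0.30 (SD, n = 3) in C, 4.10 ± 1.03 (n = 3) in SS and 8.03 ± 0.46 (n = 4) in ADMA. The difference of ADMA from C was -2.37 on the log2 scale. Because these differences chose the gene, they are given with no test.

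No other troponin gene tested had a difference of this size. Of 7 troponin genes with a probe set, 3 were bright enough to test, TNNC1 included. TNNT1, the slow skeletal troponin T, rose in SS by 0.54 (SE 0.10, adjusted p = 0.000189 in limma), and with ADMA stood at 0.15 (SE 0.09, adjusted p = 0.221) relative to SS. Its rise in SS was no longer called with arrays centred on their medians, at 0.15. TNNC2, the fast skeletal troponin C, and TNNI3, the cardiac troponin I, were dim in every group. The 3 tested genes whose pattern over the 10 arrays was nearest to that of TNNC1, by the root mean square difference of log2 signals centred on the mean of the group means, were CLDN11 at 0.69, ID3 at 0.89 and TDO2 at 0.94. These distances use the TNNC1 values of the SS arrays, which lie under background and are no measured levels, and the same differences that chose the gene, so the order of the 3 genes carries no weight. CLDN11, a claudin of tight junctions, averaged 10.71, 5.49 and 8.11 in C, SS and ADMA on the log2 scale. ID3, an inhibitor of basic helix-loop-helix factors, averaged 12.12, 7.73 and 10.81. TDO2, which degrades tryptophan, averaged 11.86, 7.11 and 9.45.

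MYLK, the kinase that switches on myosin II by phosphorylating its regulatory light chain, had signals of 327, 414 and 357 in C, of 295, 341 and 263 in SS, and of 887, 943, 907 and 816 in ADMA. All 4 ADMA arrays were above all others, while the C and SS arrays overlapped. The gene rose with ADMA by 1.57 on the log2 scale against SS (SE 0.12, adjusted p = 1.60e-07 in limma) and by 1.29 against C (SE 0.12, adjusted p = 2.29e-07). The difference of SS from C was -0.29 (SE 0.12, adjusted p = 0.0526) and was not called. It became a call at -0.50 with quantile normalization and at -0.68 with arrays centred on their medians, so that the call and the size of the difference depended on the scaling while its sign did not.

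The other 4 probe sets of MYLK were much dimmer. The brightest of them read 91.2, 61.7 and 38.7 in C, 58.9, 57.1 and 16.5 in SS, and 101, 102, 87.6 and 104 in ADMA. Its ADMA values were again the high ones, although 1 C array came within their range. Where the log2 signals of all 5 probe sets were averaged, the MYLK differences were 0.86 against SS and 0.75 against C, and neither was called. The light chain gene MYL9, whose product MYLK phosphorylates, had signals of 8.11, 56.9 and 31.3 in C, of 16.6, 12.3 and 21.1 in SS, and of 5.50, 48.1, 82.2 and 8.96 in ADMA by its brighter probe set. It was above background on 1 C array, no SS array and 1 ADMA array, so no difference is given. Among 13 tested genes of the light chains, their kinases and their phosphatase, MYLK included, 4 were higher and 2 lower in SS against C. With ADMA against SS, 3 were higher and 1 lower. These were 46.2% and 30.8% of the 13, beside 57.6% and 29.5% of all genes tested. PPP1R14B, an inhibitor of the phosphatase that acts on myosin, had the largest called difference in SS, a fall by 1.11 (SE 0.10, adjusted p = 1.62e-07). Its rise with ADMA of 0.39 (SE 0.09, adjusted p = 0.00401) lost its call when SS array 1 or 2 or ADMA array 3 or 4 was left out.

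CNN3, an actin-binding calponin of non-muscle cells, had signals of 4497, 4361 and 5170 in C, of 1700.4, 1848 and 1656 in SS, and of 2288, 2288, 2412 and 2591 in ADMA. The 3 groups did not overlap, with C highest and SS lowest. It fell by 1.43 on the log2 scale in SS (SE 0.08, adjusted p = 7.05e-10 in limma), rose with ADMA against SS by 0.47 (SE 0.07, adjusted p = 0.000147), and with ADMA stayed lower than in C, at -0.96 (SE 0.07, adjusted p = 3.93e-08). A second, dimmer probe set of CNN3 read 579, 668 and 551 in C, 225, 254 and 274 in SS, and 361, 275, 363 and 349.9 in ADMA. It had the same order of groups, although 1 ADMA array lay within 1 unit of the highest SS array. In a fit over 27307 single probe sets, the second probe set was called lower in SS, at -1.25 (SE 0.14, adjusted p = 2.66e-06), and stood at 0.42 with ADMA against SS (SE 0.13, adjusted p = 0.0248), which was not called.

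The calponins, caldesmon and the transgelins, actin-binding proteins best known from smooth muscle, had 5 tested genes, CNN3 included. In SS, 3 of the 5 were lower and none higher (60% called, where 57.6% of all genes tested were). With ADMA against SS 2 were higher and none lower (40%, where 29.5% of all were). The same counts were obtained after quantile normalization, while after centring on the median 4 were lower in SS, as were 5184 of all 12344 genes tested. TAGLN2, the transgelin of non-muscle cells, fell by 1.56 in SS (SE 0.08, adjusted p = 2.98e-10 in limma) and rose with ADMA by 0.85 (SE 0.07, adjusted p = 6.13e-07). CNN2, the other calponin tested, fell by 0.44 in SS (SE 0.08, adjusted p = 0.000247) and was not called with ADMA. CNN1, the smooth muscle calponin, was dim in every group.

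**Figure D2:**
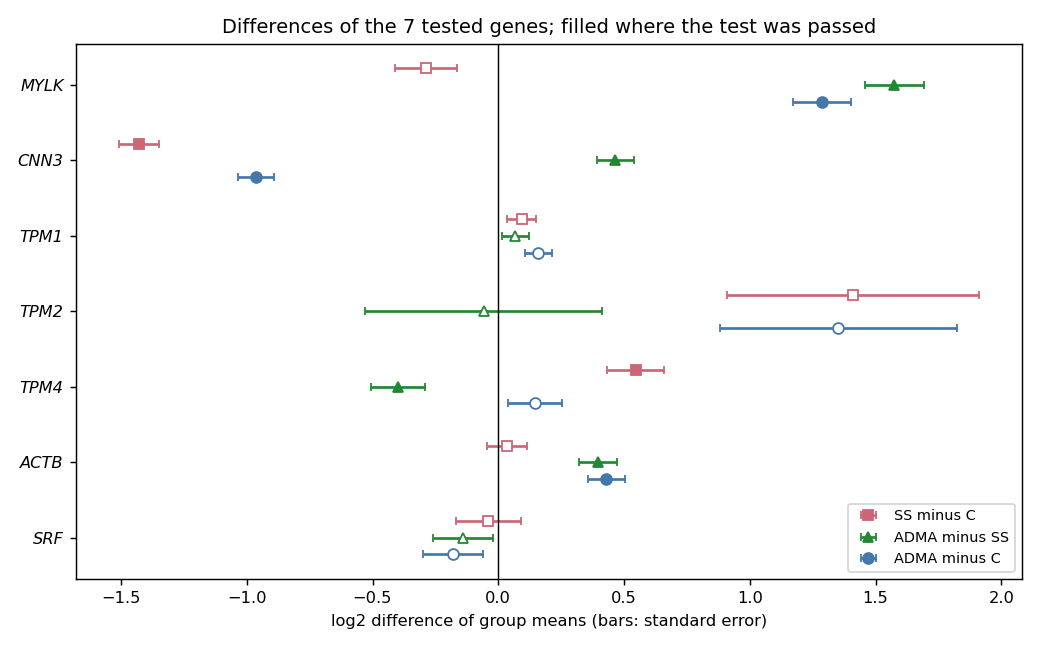
Log2 differences (x axis) of the 7 members tested, TNNC1 aside, for SS against C, ADMA against SS and ADMA against C, with SE bars from the limma fit over all 10 arrays and filled symbols for called differences. MYLK lies at 1.57 with ADMA against SS and CNN3 at -1.43 in SS against C, whereas SRF, TPM1 and TPM2 have no filled symbol.

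The 3 tropomyosin genes gave 3 different pictures. TPM4, a tropomyosin of non-muscle cells, had signals of 654, 866 and 756 in C, of 1021, 1114 and 1171 in SS, and of 719, 919.6, 868 and 842 in ADMA. The SS arrays were above all others, and those of C and ADMA overlapped. TPM4 rose in SS by 0.55 (SE 0.11, adjusted p = 0.000649 in limma) and fell by 0.40 with ADMA against SS (SE 0.11, adjusted p = 0.00741), to 0.15 above C (SE 0.11, adjusted p = 0.254). The fall with ADMA stood close to the threshold: it lost its call when C array 3, SS array 1, 2 or 3 or ADMA array 1, 3 or 4 was left out, with differences of -0.45 to -0.33 in those fits. The rise in SS was 0.16, and not called, with arrays centred on their medians, and it was not called with the probe sets of the gene averaged (0.55, adjusted p = 0.0105) or with probe sets of the suffix _x_at or _s_at, whose probes can match several transcripts, left out (0.29).

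Of the other TPM4 probe sets, the next brightest gave the same order of groups, with 461, 497 and 544 in C, 751, 890.0 and 796 in SS, and 492, 489, 505 and 416 in ADMA. The SS arrays again did not overlap with any other. In the fit over single probe sets it was called higher in SS, at 0.70 (SE 0.11, adjusted p = 7.63e-05), and lower with ADMA against SS, at -0.77 (SE 0.10, adjusted p = 6.81e-05). After centring on the median, the first of these was 0.31 and was not called. The third brightest probe set was called in neither comparison, at 0.29 (SE 0.15, adjusted p = 0.104) and -0.09 (SE 0.14, adjusted p = 0.674). The fourth brightest, at 155, 33.8 and 184 in C, 72.0, 67.1 and 78.2 in SS, and 114, 125, 165 and 185 in ADMA, had its low arrays in SS, apart from 1 C array under its background level. Its differences of -0.45 in SS against C (SE 0.49, adjusted p = 0.444) and 0.998 with ADMA against SS (SE 0.46, adjusted p = 0.110) had the opposite signs and were not called. The probe sets of TPM4 therefore disagreed on the size of both differences. Only the fourth had the opposite direction, in differences that were not called. The dimmest probe set stayed under the filter, and its values of 1.68 and -1.37 had the signs of the main one.

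TPM1, which encodes many tropomyosin isoforms through alternative exons, had signals of 9608, 10052 and 10119 in C, of 10589, 10081 and 11108 in SS, and of 11090, 10694, 10781 and 11802 in ADMA by its brightest probe set. The C and SS arrays overlapped, as did those of SS and ADMA, and the ADMA arrays were all above those of C. None of the 3 differences was called, at 0.09 (SE 0.06, adjusted p = 0.167 in limma) for SS against C, 0.07 (SE 0.05, adjusted p = 0.346) for ADMA against SS and 0.16 (SE 0.05, adjusted p = 0.0181) for ADMA against C. With arrays centred on their medians the first and the last were called lower, at -0.30 (adjusted p = 0.00866) and -0.35 (adjusted p = 0.00151), and the other was -0.05. With quantile normalization the first was called higher, at 0.27, so the direction of TPM1 in SS against C depended on the scaling.

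Dimmer probe sets of TPM1 moved in opposite directions from each other. The fourth brightest probe set read 465, 457 and 630.5 in C, 255, 265 and 229 in SS, and 224, 289.9, 331 and 318 in ADMA. The C arrays were above all others, and the probe set fell by 1.04 in SS (SE 0.17, adjusted p = 9.86e-05 in the fit over single probe sets). The fifth brightest read 21.8, 7.50 and 92.5 in C, 272, 303 and 436 in SS, and 360, 238, 242 and 184 in ADMA. Here the C arrays were below all others, and 2 of the 3 were under the background level. With a C mean of 4.63, under the filter, the probe set passed it through SS and ADMA, so no test against C is given. Its fitted difference of 3.74 (SE 0.63) rests on those dim C values, and with them set at the background level it was 2.43 (SE 0.32). Both differences kept their direction with quantile normalization, at -1.22 and 3.33, and with centring on the median, at -1.43 and 3.35. Neither probe set was called between ADMA and SS, where they stood at 0.21 (SE 0.16) and -0.41 (SE 0.59). The probe set ranked the third in brightness was called lower with ADMA than in C, at -0.34 (SE 0.06, adjusted p = 0.000167), with 6378, 7036 and 6149 in C against 5242, 4979, 5136 and 5215 in ADMA. It was not called with quantile normalization, at -0.22, and stood at -0.85 with centring on the median. The dimmest probe set stayed under the filter, with 30.9, 19.1 and 15.5 in C, 88.9, 68.8 and 46.4 in SS, and 13.7, 16.4, 20.4 and 10.6 in ADMA. Its SS arrays were above all others. It was above background on 2 SS arrays and on no C or ADMA array, so no difference is given. Which TPM1 transcripts each probe set reads was not analysed here.

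TPM2, the β-tropomyosin of muscle, was dim, with signals of 85.1, 73.0 and 15.8 in C, of 128, 150.2 and 96.1 in SS, and of 146, 124, 118 and 90.3 in ADMA. The C arrays were the low ones, and 1 of them was under its background level. With a C mean of 5.53, under the filter, TPM2 passed it through SS and ADMA, so no test against C is given. The differences from C were 1.41 in SS (SE 0.50) and 1.35 with ADMA (SE 0.47). ADMA differed from SS by -0.06 (SE 0.47, adjusted p = 0.934 in limma). The size rested on single C arrays. Without C array 1 the differences from C were 1.85 and 1.79, and without C array 3, the one under background, they were 0.64 and 0.58. Its other 3 probe sets stayed under the filter.

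Of the 6 tropomyosin and tropomodulin genes tested, the 3 members included, 3 were higher and 1 lower in SS. With ADMA against SS, 1 was higher and 2 lower. These were 66.7% and 50% of the 6, beside 57.6% and 29.5% of all genes tested. The tropomodulins, which cap the pointed end of tropomyosin-coated filaments, differed from each other. TMOD1 fell by 0.68 in SS (SE 0.11, adjusted p = 4.36e-05) and rose with ADMA by 0.46 (SE 0.10, adjusted p = 0.00182), a rise that was not called without SS array 1. TMOD3 rose in SS by 0.52 (SE 0.11, adjusted p = 0.000786) and fell by 0.61 with ADMA (SE 0.10, adjusted p = 0.000311). With arrays centred on their medians the rise of TMOD3 in SS was 0.13 and was not called.

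**Figure D3:**
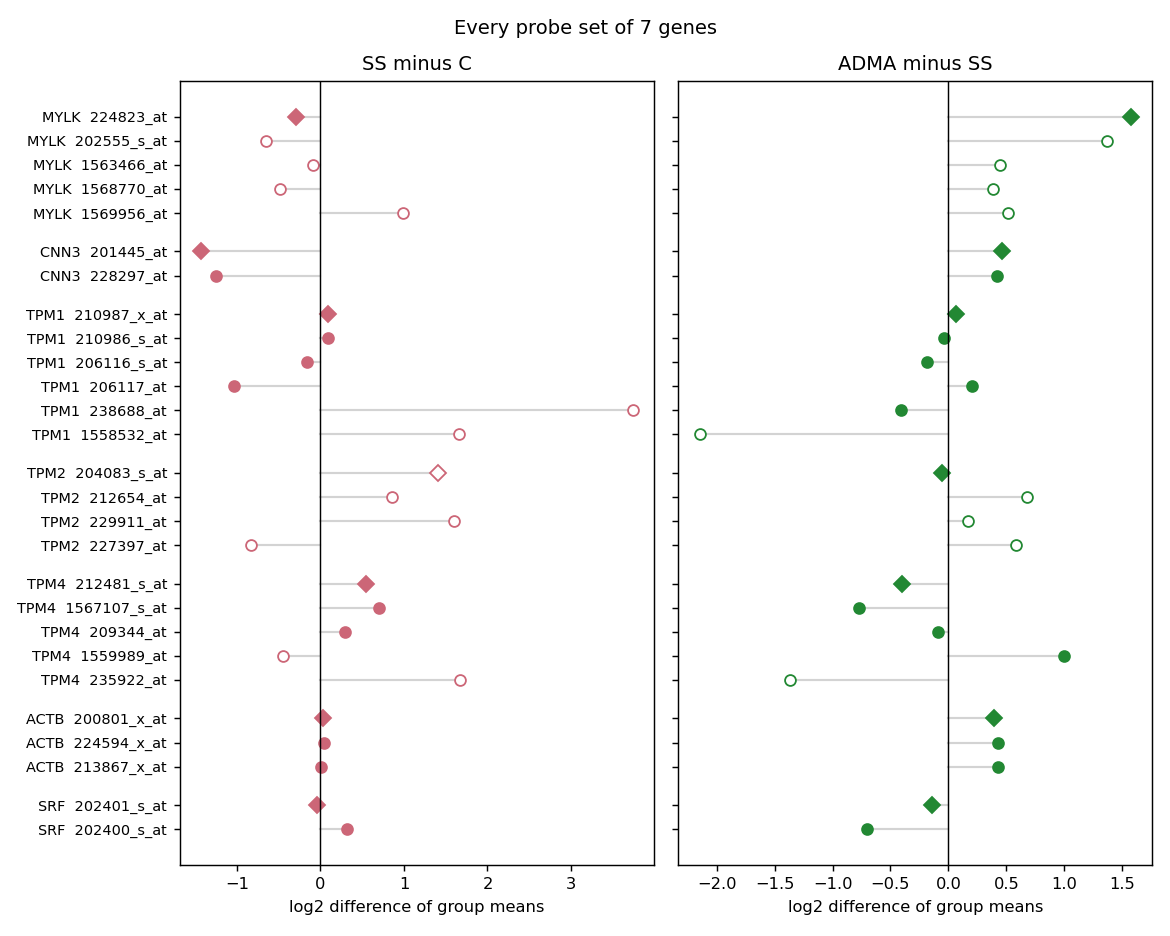
Log2 difference (x axis) of every probe set of 7 members, for SS against C and ADMA against SS; diamonds mark the probe set used for the gene, and filled symbols those above background on all arrays of both groups. The probe sets of CNN3 lie together, while those of TPM1 spread from -1.04 to 3.74 in SS against C.

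ACTB, the β-actin of the cytoplasm, had signals of 25366, 23137 and 25559 in C, of 25042, 22991 and 27968 in SS, and of 34567, 32458, 30039 and 36156 in ADMA. The 4 ADMA arrays were above all others, and those of C and SS overlapped. ACTB rose with ADMA by 0.40 against SS (SE 0.07, adjusted p = 0.000655 in limma) and by 0.43 against C (SE 0.07, adjusted p = 0.000152), while SS differed from C by 0.03 (SE 0.08, adjusted p = 0.722). The other 2 probe sets of ACTB alone were called too, at 0.43 and 0.42 against SS. These rises did not hold under other scalings: against SS the difference was 0.06 with quantile normalization (adjusted p = 0.221) and 0.28 with centring on the median (adjusted p = 0.0111), and against C it was 0.03 and -0.08.

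The very bright features of the ADMA arrays were high as a whole, and this moved together with ACTB. Over the 100 brightest genes, the median log2 difference of ADMA from SS was 0.33, with quartiles of 0.24 and 0.40, against 0.03 over all 12344 genes. Against C it was 0.38, and for SS against C it was 0.04. The 4 cre control probe sets, which read a transcript added during hybridization and not RNA of the cells, stood 0.05 to 0.28 higher in ADMA than in SS, with a median of 0.21. The 3 tested genes nearest to ACTB over the arrays were the ribosomal protein genes RPS6 at 0.036, RPLP1 at 0.039 and RPL10A at 0.044. The part of these array-wide values in the ACTB difference was not tested.

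**Figure D4:**
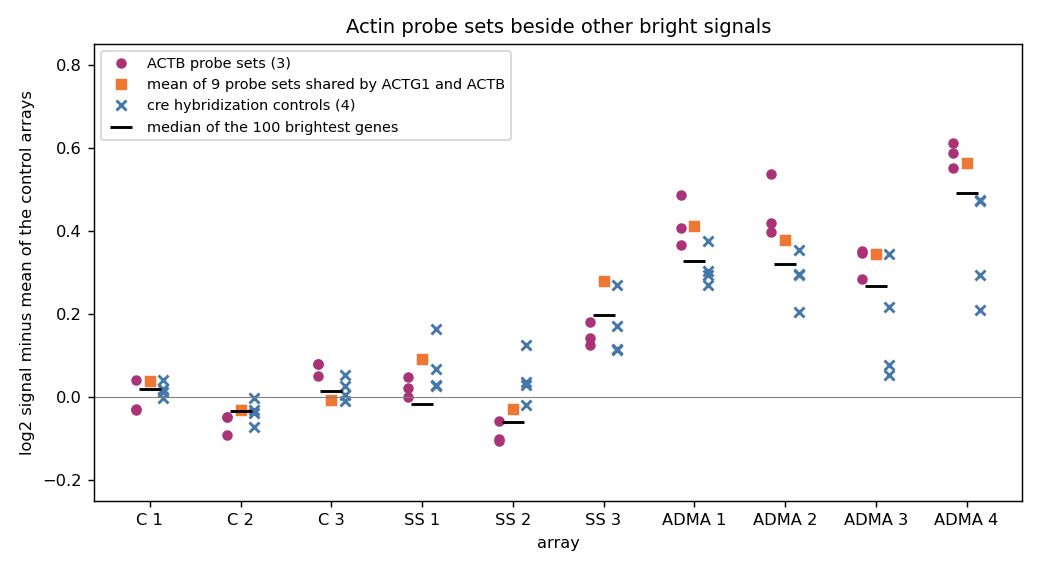
Log2 signal on each of the 10 arrays minus its mean over the C arrays (y axis), for the 3 probe sets of ACTB, the mean of the 9 probe sets shared by ACTG1 and ACTB, the 4 cre hybridization controls and the median of the 100 brightest genes. All series are higher on the ADMA arrays than on the C arrays, the actin probe sets by 0.28 to 0.61 and the bright genes by 0.27 to 0.49.

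ACTG1, the γ-actin of the cytoplasm, differs from ACTB in few residues and could not be told apart from it on this array. The 9 shared probe sets stood 0.06 to 0.19 above C in SS, and none was called in the fit over single probe sets, where the lowest adjusted p was 0.0381. With ADMA they stood 0.23 to 0.38 above SS, where 7 of the 9 were called higher, and 0.38 to 0.47 above C, where all 9 were. As the 9 read the same transcripts, they are not separate evidence. With quantile normalization none of them was called between ADMA and SS, and their differences ran from -0.10 to 0.05.

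The array also carries ACTB control probe sets at the 3′ end, the middle and the 5′ end of the transcript. The ratio of the 3′ to the 5′ signal was 1.01 to 1.08 in C, 1.13 to 1.23 in SS and 1.02 to 1.05 in ADMA, so the SS arrays were the high ones. The same ratio for GAPDH was 0.857 to 0.931, 0.861 to 0.974 and 0.855 to 0.896. A 28S ribosomal RNA control read 501 to 634 in C, 1345 to 2014 in SS and 795 to 1052 in ADMA, again highest in SS. The part of these differences in the values of any member was not tested.

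Among the 3 actin genes tested, ACTA2, the actin of smooth muscle, was called where ACTB was not and in the other direction with ADMA. It rose in SS by 0.32 (SE 0.09, adjusted p = 0.00461 in limma) and fell by 0.51 with ADMA against SS (SE 0.08, adjusted p = 0.000201). The rise in SS was lost without C array 2 or 3 or SS array 2 or 3 and under both other scalings, and turned to -0.07 with centring on the median. The fall with ADMA held under both scalings, at -0.50 and -0.62. LUM, a fibroblast marker that moved in the same direction, rose in SS by 1.47 (SE 0.24, adjusted p = 5.62e-05 in limma). It fell by 0.90 with ADMA (SE 0.22, adjusted p = 0.00405). In the marker list as a whole, 2 of 8 tested genes were higher in SS and 2 lower with ADMA, in both cases ACTA2 and LUM. That is 25% in each comparison, beside 57.6% and 29.5% of all genes tested. No other tested gene of the list was called, among them COL1A1, at -0.13 in SS and -0.06 with ADMA. The part of other cell types in the ACTA2 values was not tested.

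SRF, the factor that many of these genes answer to, had signals of 707, 738 and 751 in C, of 766, 752 and 627 in SS, and of 687, 529.9, 621 and 773 in ADMA. All 3 groups overlapped. No difference was called, at -0.04 (SE 0.13, adjusted p = 0.799 in limma) for SS against C, -0.14 (SE 0.12, adjusted p = 0.376) for ADMA against SS and -0.18 (SE 0.12, adjusted p = 0.209) for ADMA against C. The last was called lower, at -0.68, with arrays centred on their medians. A dimmer probe set of SRF read 153, 201 and 154 in C, 197, 202 and 228 in SS, and 122, 143, 184 and 83.3 in ADMA. Its ADMA arrays were all below those of SS, and its difference of -0.71 (SE 0.24, adjusted p = 0.0351 in the fit over single probe sets) was not called. The tested genes nearest to SRF were RAB30-DT at 0.088, PHF7 at 0.098 and OR7E12P at 0.10, all with small differences between groups.

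Several cofactors of SRF were called where SRF was not, although the difference between them and SRF was not tested. Of 9 tested genes, SRF included, 6 were higher and none lower in SS (66.7% called, where 57.6% of all genes tested were). With ADMA against SS none was higher and 3 were lower (33.3%, where 29.5% of all were). The median differences were 0.46 in SS and -0.22 with ADMA, beside 0.07 and 0.03 over all genes tested. FHL2, a LIM-domain protein that binds SRF and whose promoter window held a CArG box, rose in SS by 2.29 (SE 0.08, adjusted p = 1.09e-11) and fell by 0.57 with ADMA (SE 0.08, adjusted p = 3.92e-05). FHL2 averaged 11.07 ± 0.04 (SD, n = 3), 13.36 ± 0.07 (n = 3) and 12.79 ± 0.17 (n = 4) in C, SS and ADMA on the log2 scale.

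MRTFB, an actin-regulated coactivator of SRF, rose in SS by 0.90 (SE 0.11, adjusted p = 3.30e-06 in limma). MRTFA, its close relative, was called higher by 0.91 (SE 0.23, adjusted p = 0.00260), which was lost without C array 1 or SS array 2 or 3 and under both other scalings, at 0.55 and 0.52. SCAI, which represses the MRTFs, rose by 1.06 (SE 0.13, adjusted p = 4.01e-06), so genes of opposite action on SRF stood among those higher in SS. ELK4, an ETS partner of SRF, rose in SS by 0.45 (SE 0.08, adjusted p = 0.000178) and fell by 0.36 with ADMA (SE 0.08, adjusted p = 0.00139). ELK1 fell by 0.57 with ADMA (SE 0.15, adjusted p = 0.00832), a call that was lost without C array 2 or 3, any 1 SS array, or ADMA array 1, 2 or 3. After centring on the median, 3 of the 9 remained higher in SS (FHL2, MRTFB and SCAI) and 3 were lower with ADMA. Of all 12344 genes tested, 2013 were then higher in SS and 2093 lower with ADMA. The ELK4 fall was lost without SS array 2.

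The wider actin and myosin machinery, 136 genes with a probe set of which 120 were tested, is described without the members, which leaves 112 tested genes. In SS against C 44 were higher and 21 lower (58.0%, where 57.6% of all genes tested were called either way), with a median of 0.10 against 0.07 over all genes. With ADMA against SS 23 were higher and 13 lower (32.1%, where 29.5% of all were), with a median of 0.04 against 0.03. With ADMA against C 43 were higher and 18 lower (54.5%, against 49.8%). MYO7B counts among the higher in both comparisons with C, although it passed the filter only through SS and ADMA. With the members, the counts over the 120 were 45 and 23, 27 and 14, and 45 and 20. These include TNNC1 as lower, higher and lower, although its differences chose it and it is given with no test. The split over the 120 depended on the scaling: with arrays centred on their medians it was 19 higher and 53 lower in SS against C, and 17 and 53 with ADMA against C. All 12344 genes tested moved likewise, to 2013 higher and 5184 lower in SS against C and to 1209 and 6101 with ADMA against C. The number of the 120 that were lower with ADMA against SS was 8 without SS array 1 and 9 without SS array 2. Of all 12344 genes tested, 1704 were lower with all arrays, and 1294 and 1296 in those 2 fits.

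**Figure D5:**
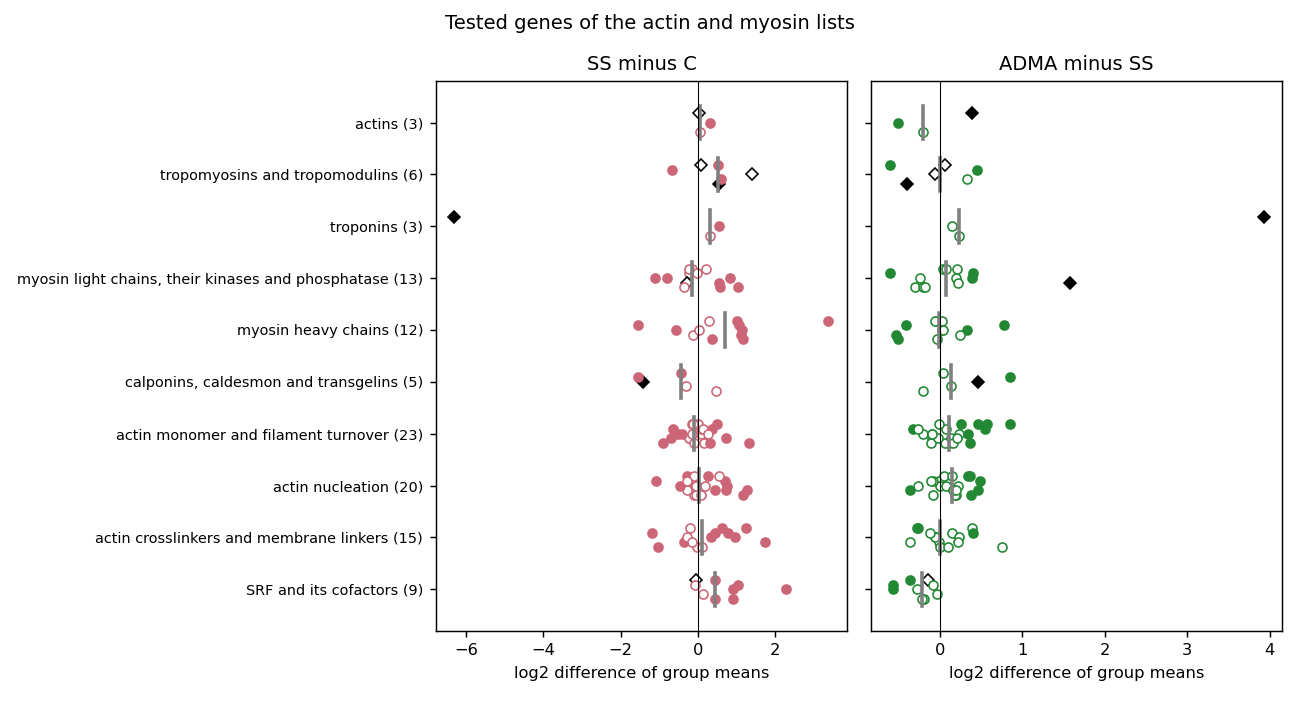
Log2 differences (x axis) of the tested genes of 10 actin and myosin lists, for SS against C and ADMA against SS; black diamonds are the members, filled symbols are called genes and grey bars are list medians. SRF and its cofactors lie mostly to the right of 0 in SS (median 0.46) and to the left with ADMA (median -0.22). The filled symbols of TNNC1 and, in SS against C, of MYO7B stand for genes that the text gives with no test.

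Among the myosin heavy chains, the motors of the family, 7 of 12 tested genes were higher and 2 lower in SS. That is 75% of the 12, beside 57.6% of all genes tested. The 7 include MYO7B, for which no test is given below, so this share is a count only. MYO7B, a motor of the brush border microvilli, was under the background level on all 3 C arrays and above it on all SS and ADMA arrays. With its dim values set at the background level, it was at least 5.32-fold higher in SS than in C. Its C mean of 4.58 was under the filter, which it passed through SS and ADMA, so no test is given for it. MYO1A, another brush border myosin, fell by 1.54 in SS (SE 0.09, adjusted p = 1.86e-09 in limma) and rose with ADMA by 0.78 (SE 0.09, adjusted p = 7.20e-06). The 2 brush border motors thus moved in opposite directions in SS, and the promoter window of MYO1A held a CArG box.

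For actin turnover, 5 of 23 tested genes were higher and 5 lower in SS (43.5% called, where 57.6% of all genes tested were). With ADMA 7 were higher and 1 lower (34.8%, where 29.5% of all were), and the 7 became 4 under both other scalings. After centring on the median, 1 was higher and 12 lower in SS (2013 and 5184 of all 12344 genes). GSN, the filament-severing gelsolin, rose in SS by 1.32 (SE 0.11, adjusted p = 5.09e-08) and with ADMA remained 1.38 above C (SE 0.10, adjusted p = 2.79e-08). CAP2, a cyclase-associated actin monomer binder, was higher with ADMA than in SS by 0.85 (SE 0.20, adjusted p = 0.00357), a call lost without SS array 1 or 2 or ADMA array 1 or 2. Of 20 genes of actin nucleation, 7 were higher and 3 lower in SS (50%, against 57.6% of all genes). With ADMA 5 were higher and 1 lower (30%, against 29.5%). The 5 became 3 with quantile normalization and 0 with centring on the median, where the 1935 of all genes became 1872 and 901. Centring also turned the SS counts to 2 higher and 10 lower (2013 and 5184 of all 12344 genes). WASF2, a WAVE subunit that activates the Arp complex, rose in SS by 1.27 (SE 0.08, adjusted p = 4.03e-09) and fell by 0.36 with ADMA (SE 0.08, adjusted p = 0.00175), the latter not called without SS array 1. The formin gene DIAPH3 fell by 1.07 in SS (SE 0.08, adjusted p = 1.27e-08) and rose with ADMA by 0.49 (SE 0.07, adjusted p = 8.88e-05).

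Of 15 crosslinkers and membrane linkers, 7 were higher and 3 lower in SS (66.7% called, where 57.6% of all genes tested were). With ADMA 1 was higher and 1 lower (13.3%, where 29.5% of all were). Centring on the median gave 4 higher and 8 lower in SS (2013 and 5184 of all 12344 genes). SPTAN1, the non-erythroid spectrin, rose in SS by 1.75 (SE 0.11, adjusted p = 2.88e-09). ANLN, the anillin of the cytokinetic ring, fell by 1.19 (SE 0.08, adjusted p = 9.98e-09) and rose with ADMA by 0.40 (SE 0.08, adjusted p = 0.000845). With arrays centred on their medians, the rises with ADMA of DIAPH3 (0.37), TMOD1 (0.34), ANLN (0.28) and PPP1R14B (0.27) kept their sign and were not called. With all probe sets of a gene averaged, TPM4, SPTAN1, MRTFB, SCAI, MRTFA, ELK4 and ACTA2 were not called in SS against C, nor were MYLK, TPM4, ACTA2, DIAPH3, ELK1, ELK4 and WASF2 with ADMA against SS.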

How the data were processed

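RNA of 10 LoVo cultures was hybridized to HG-U133 Plus 2.0 arrays. The authors deposited MAS 5.0 signals, 1 linear intensity for each probe set, with every array brought to a common trimmed mean (2% left out at each end). Of 54675 probe sets, 62 were controls, 41091 carried 1 gene symbol in the platform annotation, 1801 several and 11721 none. No value column was left unmapped.

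The log2 of each deposited intensity was taken with no pseudocount and no further normalization. Genes passed with a mean log2 signal of at least the 50th percentile over probe sets, 6.25 (a signal of 76.2). Groups were compared by limma (version 3.58.1, R 4.3.3; lmFit, then eBayes with its trend option) with all 10 arrays in the same model, with Benjamini-Hochberg adjustment and the thresholds of the study's SAM analysis, an adjusted p of 0.01 and a fold of 1.2. The number of arrays limits the precision. The highest correlation of 2 arrays of a group was 0.987. Steps were tested on simulated data, and the plots were made in matplotlib 3.10.9 under Python 3.11.15.

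The members and gene lists were chosen with earlier results of these data known. Named genes are the members, in each list the called gene with the largest difference in SS against C and in ADMA against SS, and for TNNC1, SRF and ACTB the 3 nearest genes. LUM, COL1A1, CNN2, CNN1, TNNT1, TNNC2, TNNI3, MRTFA, MRTFB, SCAI, ELK1, ELK4, CDX1, CDX2 and GPA33 were named after their values were seen. The alternatives tried were a pseudocount of 16, quantile normalization, arrays centred on their medians, a stricter filter and none, signals raised to the background level, other probe set rules, SAM, limma without the trend, a fit on 2 groups only, a block for the replicate number, leaving out each array, and, chosen after seeing the data, probe sets in place of genes. Protein sequences of the families were not analysed here. The genes of 1 further pathway list enter the pathway counts, and the list itself is not reported here.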

Additional observations from a re-analysis of the deposited data

How the results depend on the processing

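Member counts exclude TNNC1, whereas the pathway counts include it and MYO7B, both given above with no test. The number of alternatives computed was 23. In SS against C, the 1 member higher became 2 with quantile normalization, 0 with centring on the median and 0 without the _x_at and _s_at probe sets, and the 1 lower became 2, 4 and 2. The 45 actin pathway genes higher became 19 with centring and 28 with probe sets averaged per gene, and the 23 lower became 53 with centring. In ADMA against SS, the 1 member lower, TPM4, became 0 with no filter on low signal, with the mean of probe sets, without _x_at and _s_at probe sets, without the trend, with SAM and with probe sets in place of genes. The 27 pathway genes higher became 10 with centring, 16 with the mean of probe sets and 12 with SAM, and the 14 lower became 4 with the mean of probe sets, 9 without the trend and 7 with SAM. In ADMA against C, the 2 members higher became 1 with quantile normalization and 1 with centring, the 1 lower became 3 with centring and 2 without _x_at and _s_at probe sets, and with centring the 45 and 20 pathway genes higher and lower became 17 and 53. All 12344 genes moved too. With centring, the 3738 and 3372 higher and lower in SS against C became 2013 and 5184, and the 3284 and 2859 in ADMA against C became 1209 and 6101. In ADMA against SS, the 1935 and 1704 became 901 and 2093 with centring, 1376 and 928 with the mean of probe sets, and 1281 and 1181 with SAM. Without the trend 1450 were lower there. With probe sets averaged, 3023 were higher in SS against C. With each array of the compared groups left out in turn, members higher and lower numbered 1 to 2 and 1 to 1 in SS against C, 3 to 3 and 0 to 1 in ADMA against SS, and 2 to 3 and 1 to 1 in ADMA against C. The upper counts of 2 and 3 against C come from TPM2, which passed the filter through SS and ADMA. Pathway genes numbered 37 to 41 and 22 to 24, 19 to 31 and 8 to 14, and 40 to 45 and 18 to 20. Over all genes tested it was 3456 to 3569 and 3104 to 3237, 1545 to 1903 and 1294 to 1662, and 3059 to 3167 and 2604 to 2795. Differences of single members that turned sign were TPM1 in SS against C (-0.30 with centring, -1.04 without _x_at and _s_at probe sets) and in ADMA against C (-0.35 and -0.83), and in ADMA against SS (-0.043 with quantile normalization, -0.050 with centring, -0.42 with probe sets averaged); ACTB in SS against C (-0.031 with quantile normalization, -0.36 with centring, -0.040 to 0.10 with arrays left out) and in ADMA against C (-0.076 with centring); TPM4 in ADMA against C (-0.36 with centring); SRF in SS against C (0.14 with probe sets averaged, -0.092 to 0.053 with arrays left out); and TPM2 in ADMA against SS (0.34 with probe sets averaged, 0.069 with the replicate block, -0.23 to 0.088 with arrays left out). Centring moves every difference of a comparison by 1 constant, and the other probe set rules read another probe set; the cause of the other changes was not tested. Of 463 values of single members, 412 kept their direction and their side of the threshold or, for TNNC1, moved by less than 1 SD. With the signals of TNNC1 raised to the background level, its differences were -4.79 and 2.41. The replicate numbers did not pair the arrays: deviations of 9 same-numbered pairs correlated at -0.07 to 0.10, and an array correlated best with its own number in 6 of 18 checks. With the replicate block, the members higher and lower numbered 1 and 1, 3 and 1, and 2 and 1 over the 3 comparisons, and the pathway genes 44 and 23, 23 and 11, and 42 and 19. Over all genes tested it was 3714 and 3345, 1644 and 1439, and 3163 and 2779. Signals near the background level, as for TPM2, MYL9 and the C arrays of the fifth TPM1 probe set, limit what can be said of low groups.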
